A study of Mus musculus with 37 samples.

Results

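The clonotypes described here carry one of 2 variable (V) segments of the mouse T cell receptor beta chain, TRBV4 or TRBV2, whose older RefSeq names are Tcrb-V10 and Tcrb-V4 and which both lie on chromosome 6. They were taken as all clonotypes whose best V call was TRBV4 or TRBV2, each segment kept apart. They made up 344227 of the 1704980 clonotypes in 37 lymph node libraries, with 143166 (8.40%) using TRBV4 and 201061 (11.8%) using TRBV2, among 21 V segments seen. A clonotype here is 1 rearranged nucleotide sequence in 1 library, and a receptor is 1 combination of V, J and CDR3 amino acids. By that count there were 88638 TRBV4 receptors and 118161 TRBV2 receptors. A further V segment was listed beside the best call for 0.0810% of TRBV4 and 0.134% of TRBV2 clonotypes.

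Each T cell builds its beta chain gene in the thymus by cutting and joining one V, one diversity (D) and one joining (J) segment. Nucleases remove bases from the segment ends and a polymerase adds untemplated bases before the ends are sealed. The resulting CDR3 loop runs from a conserved cysteine of the V segment to a conserved phenylalanine of the J segment and meets the peptide that the receptor recognises. Joints that need few added bases arise repeatedly, so that the same receptor can be found in many animals and is then called public.

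The libraries were made from genomic DNA of lymph node cell suspensions. The d105 libraries came from 6 mice labelled PLX+PTX+aPD-1_R (R), 4 labelled PLX+PTX+aPD-1_NR (NR), 6 PLX+PTX, 2 PTX and 5 WTNT mice, and the d95 libraries from 5 R, 3 NR, 3 PLX+PTX and 3 PTX mice. WTNT mice have the genotype label FVBN, and all others were MMTV-PyMT females, in which a viral promoter active in mammary epithelium drives the polyoma middle T oncogene. All MMTV-PyMT groups received PTX, 10 mg/kg intravenously every 5 days from 85 days of age. PLX3397 (pexidartinib, an inhibitor of the CSF1 receptor) was eaten in chow at 40 mg/kg a day from 80 days of age in the R, NR and PLX+PTX groups, and the PTX mice had control chow. The R and NR mice also received aPD-1, the antibody RMP1-14 against the checkpoint receptor PD-1, as 1.0 mg from 87 days of age and then 0.5 mg every 5 days, in place of an isotype antibody. The labels do not spell out R, NR or WTNT, and they do not say that replicates were separate animals beyond 1 mouse number each, so p-values measure the spread between these samples only.

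All d105 libraries were deeper than all d95 libraries, with 1090573 to 2831566 reads (median 1669178) at d105 and 90648 to 917752 (median 453920) at d95, so day and sequencing depth cannot be told apart. A pair of d95 libraries stood apart. NR replicate 1 had 90648 reads, with 197 TRBV4 and 284 TRBV2 clonotypes, and PLX+PTX replicate 2 had the lowest share of both segments by normalised counts and by reads, though not by clonotypes. Reads are amplified copies without molecular identifiers, so depth covers counting error only, and fewer cells carrying a segment cannot be told apart from less amplification of it. Levels are given on 3 scales: the authors' normalised counts, in which reads are multiplied by a factor fixed for each V and J pair, the raw reads, and the number of clonotypes, each counted once. The factor ran between 0.940 and 18.4 for TRBV4 pairs and between 0.801 and 19.3 for TRBV2 pairs, so the scale decides part of what is seen.

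The germline ends of both V segments, as the deposited alignments give them, are shown first because they differ at the very place where the joint is made. Both start with the conserved cysteine codon and run 5′ to 3′. Capitals mark an in-frame stop codon (TAA), the fifth codon of TRBV4, which starts at base 13.

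TRBV4: tgtgccagcagcTAAga

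TRBV2: tgtgccagcagccaaga

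The TRBV4 end had the only in-frame stop among the 12 V segments that passed a mean share of 0.1%. TRBV5, another segment, ends in the same 17 bases as TRBV2. A TRBV4 joint therefore reads through only when the stop bases are removed or altered, and only productive receptors were listed in these files.

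The joints of the 2 segments differed in the bases removed. At least 3 bases of the V end were missing in 98.6% of TRBV4 clonotypes, against 31.4% of TRBV2 clonotypes. The full V end was kept in 0.865% of TRBV4 clonotypes, against 42.0% of TRBV2 clonotypes. Losses of 5 bases (38.9%) and 4 bases (29.8%) were the commonest among TRBV4 clonotypes. The stop bases were still aligned to TRBV4 in 1996 TRBV4 clonotypes (1.39%), and each of those 1996 carried a difference from the germline there, so 0 read a stop. The codon in place of the stop was most often CAA, the codon of TRBV2 at that position, in 1003 of them.

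TRBV4 joints also held more sequence between V and J. Averaged per library, they had 10.8 ± 0.285 bases between the V and J ends, against 9.64 ± 0.225 in TRBV2 joints (SD, n = 37), and the TRBV4 value was higher in 37 of 37 libraries. The part read from a D segment was 8.66 bases in TRBV4 joints and 8.06 in TRBV2 joints, again higher in 37 of 37 libraries. Untemplated bases between V and D averaged 1.64 in TRBV4 joints and 1.27 in TRBV2 joints, while those between D and J averaged 1.65 and 1.74 and were higher in TRBV4 in only 4 of 37 libraries. A joint with no D segment called was seen in 16.5% of TRBV4 and 24.1% of TRBV2 clonotypes, lower for TRBV4 in all 37 libraries.

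**Figure D1:**
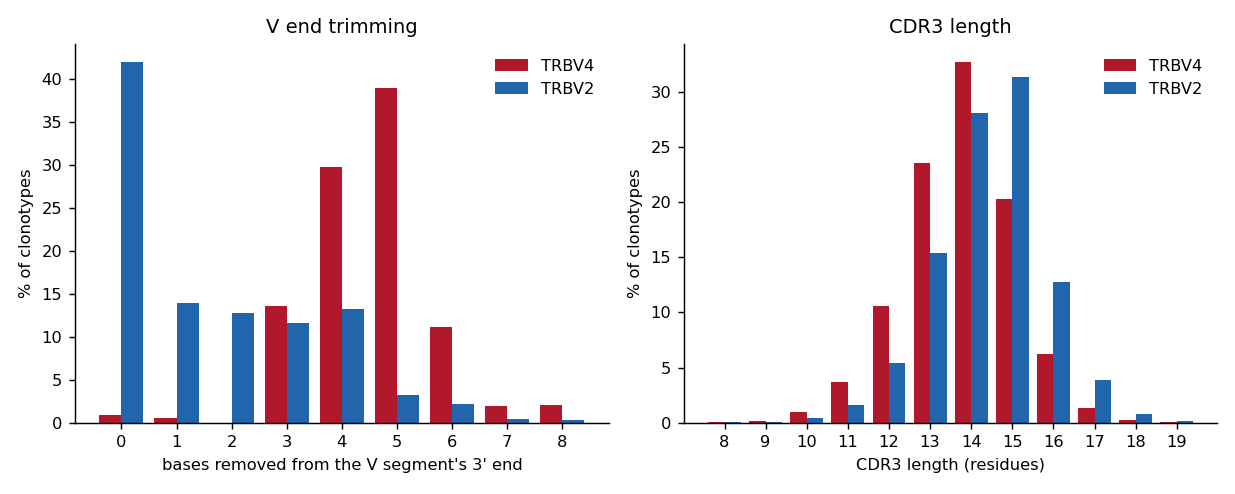
Left, percent of clonotypes by number of bases missing from the V end, and right, percent of clonotypes by CDR3 length in residues, for TRBV4 (red) and TRBV2 (blue) over all 37 libraries. Most TRBV4 clonotypes lost 4 or 5 bases, while 42.0% of TRBV2 clonotypes lost none, and TRBV4 peaks at 14 residues against 15 for TRBV2.

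CDR3 loops of TRBV4 receptors were shorter. Weighted by normalised counts, the mean length was 13.3 ± 0.0837 residues for TRBV4 and 14.2 ± 0.0646 for TRBV2 (SD, n = 37). TRBV4 was the shorter in 37 of 37 libraries, by 0.92 residues (two-sided sign-flip permutation test within libraries, adjusted p = 1e-05 over 4 measures, the smallest 100000 permutations can give). The difference was -0.94 residues in raw reads and -0.63 with each clonotype counted once. A length of 14 residues was commonest for TRBV4 (32.7% of clonotypes), and of 15 residues for TRBV2 (31.4%).

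The residues next to the V end differed in the same region. The opening CASS was found in 86.6% of TRBV4 and 95.7% of TRBV2 clonotypes, and CASR, in which a removed V base changes the fourth residue, in 7.02% and 1.53%. At the fifth residue, which the TRBV2 end encodes as glutamine (Q), 74.9% of TRBV2 clonotypes had Q, followed by P with 7.33%, R with 5.72% and H with 5.07%. At the same place TRBV4 clonotypes had no leading residue: Y had 13.9%, P 13.3%, S 12.3%, R 12.2%, L 12.1% and Q 4.38%. Over the inner loop, which leaves out the first 4 and last 6 residues, glycine led in both, with 26.5% of TRBV4 and 23.6% of TRBV2 residues. It was followed by R (8.77%) and T (8.46%) in TRBV4 and by Q (20.8%) and D (9.80%) in TRBV2.

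TRBV4 gave the largest mean share of normalised counts of any V segment, while by reads and by clonotypes it was the seventh. Its share was 20.4% ± 1.55 of normalised counts, 7.09% ± 1.08 of reads and 8.20% ± 0.549 of clonotypes (SD, n = 37). TRBV2 had 10.6% ± 1.03 of normalised counts, 11.3% ± 1.18 of reads and 11.9% ± 0.536 of clonotypes. The normalised share of TRBV4 is thus built on fewer reads than that of TRBV2, since its reads were multiplied by 5.86 overall and those of TRBV2 by 1.89.

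**Figure D2:**
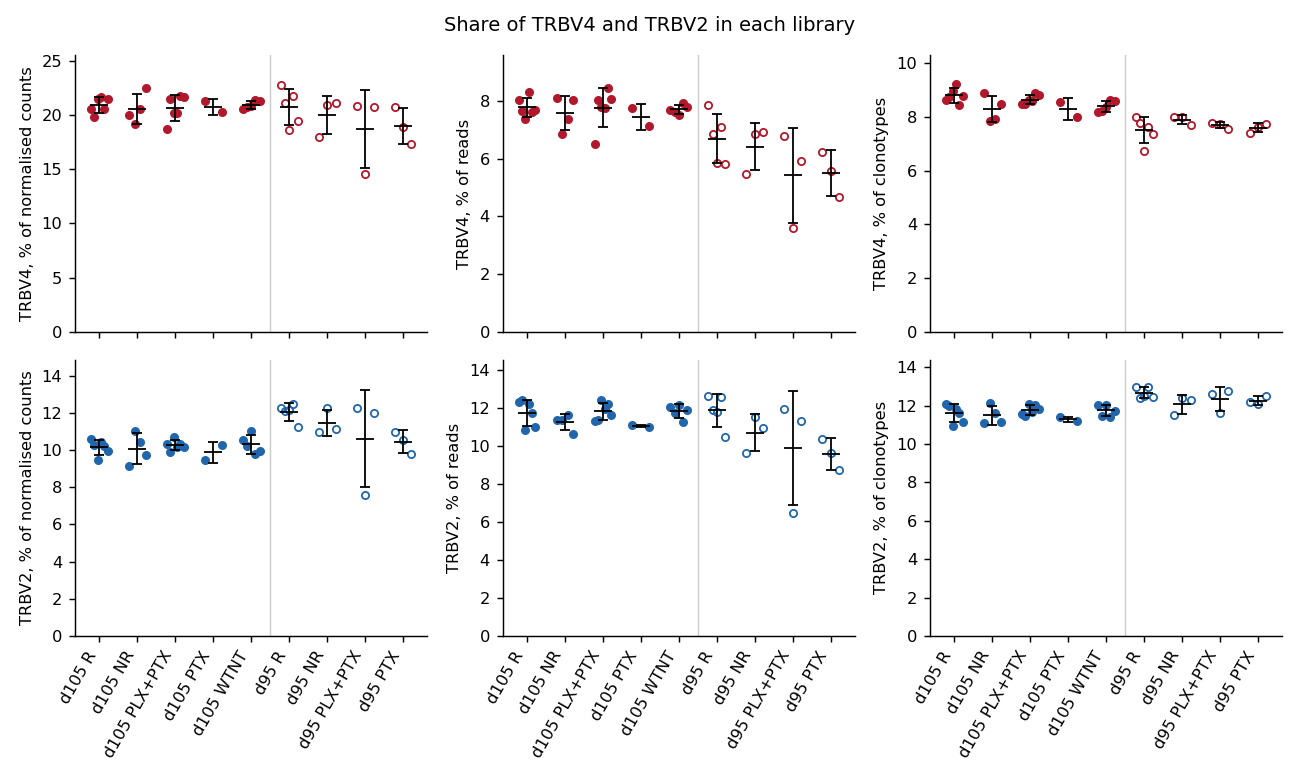
Share of TRBV4 (upper row) and TRBV2 (lower row) in each library by group, as percent of normalised counts, reads and clonotypes; d105 groups are filled and stand to the left, d95 groups are open, and bars show mean ± SD. By normalised counts the 5 d105 groups overlap for both segments, and d95 PLX+PTX replicate 2 is low for both segments, at 14.5% and 7.60% of normalised counts.

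The share of both segments was then compared between treatments. At d105 the TRBV4 share of normalised counts ran from 19.8% to 21.7% in R mice (median 21.0%) and was 20.1%, 19.2%, 20.6% and 22.5% in NR mice. It ran from 18.7% to 21.7% in PLX+PTX mice (median 20.9%), was 21.3% and 20.3% in PTX mice and 20.5%, 20.7%, 20.8%, 21.4% and 21.3% in WTNT mice. All 5 groups overlapped. At d95 it was 22.8%, 21.1%, 18.6%, 21.8% and 19.5% in R mice, 18.0%, 21.0% and 21.1% in NR mice, 20.9%, 14.5% and 20.8% in PLX+PTX mice, and 20.7%, 18.9% and 17.4% in PTX mice. No d95 group lay apart from the rest either.

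The TRBV2 share was as even within a day. At d105 it ran from 9.47% to 10.6% in R mice (median 10.2%), and was 9.14%, 11.0%, 10.4% and 9.70% in NR mice. It ran from 9.88% to 10.7% in PLX+PTX mice (median 10.2%) and was 9.47% and 10.3% in PTX mice and 10.5%, 10.2%, 11.0%, 9.78% and 9.93% in WTNT mice. At d95 it was 12.3%, 12.1%, 12.1%, 12.5% and 11.2% in R mice, 11.0%, 12.2% and 11.1% in NR mice, 12.3%, 7.60% and 12.0% in PLX+PTX mice, and 11.0%, 10.6% and 9.79% in PTX mice. The d95 R values lay above those of the d95 PTX mice, a pair that was not one of the comparisons tested.

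In none of the 7 treatment comparisons did limma call a change in the share of either segment after Benjamini-Hochberg adjustment, against a background of 0% of the 24 V and J segments tested in each. For R against NR the log2 difference of the TRBV4 share was 0.03 (SE 0.05) at d105 and 0.05 (SE 0.12) at d95. For aPD-1 added to PLX+PTX it was 0.01 (SE 0.04) at d105 and 0.14 (SE 0.12) at d95, and for PLX3397 added to PTX it was -0.01 (SE 0.06) and -0.04 (SE 0.14). MMTV-PyMT against WTNT at d105 gave -0.02 (SE 0.04). The TRBV2 differences lay between -0.03 and 0.18. Neither member passed an unadjusted p of 0.05 in any of the 7, while between 0 and 6 of all segments did.

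Across the 37 libraries, the TRBV4 share moved most like those of TRBV20 (Pearson r = 0.70) and TRBV3 (r = 0.67). The TRBV2 share moved most like those of TRBV29 (r = 0.50) and TRBV4 (r = 0.39). Over the 23 d105 libraries alone, r was 0.00099 for TRBV4 with TRBV20, -0.24 for TRBV4 with TRBV3 and 0.058 for TRBV2 with TRBV29. Over the 14 d95 libraries, r for the same pairs was 0.81, 0.76 and 0.86. These are descriptions, since shares of one library sum to a whole. Between TRBV4 and TRBV2 the correlation was negative over the 23 d105 libraries (r = -0.38) and positive over the 14 d95 libraries (r = 0.89), where PLX+PTX replicate 2 was low in both.

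J usage separated both segments. TRBJ2-7 took 55.1% of TRBV4 and 23.3% of TRBV2 normalised counts on average (n = 37), and the TRBV4 value was higher in 37 of 37 libraries, by 31.7 percentage points (sign-flip permutation test, adjusted p = 1e-05). In reads the shares were 43.6% for TRBV4 and 6.48% for TRBV2, and by clonotypes the difference shrank to 7.82 points (25.5% and 17.6%). TRBJ2-5 (11.7%) and TRBJ2-1 (7.99%) came next for TRBV4, and TRBJ2-5 (18.2%) and TRBJ2-4 (10.7%) for TRBV2. TRBJ1-7 and TRBJ1-5 were the rarest partners of both, at 0.00115% and 0.0527% for TRBV4 and at 0.00353% and 0.293% for TRBV2. The TRBJ2 cluster as a whole, the J segments next to TRBD2, held 89.8% of TRBV4 and 77.9% of TRBV2 normalised counts, but 71.3% and 72.5% of reads.

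Treatment did not shift the pairing by a called amount. Of the 11 TRBV4 and 12 TRBV2 pairs tested, 0 were called in each of the 7 treatment comparisons, against 0% of 128 pairs at d105 and 0% of 122 at d95 (limma, Benjamini-Hochberg). At an unadjusted p under 0.05, R against NR at d105 had 3 TRBV4 pairs and 1 TRBV2 pair among 10 of all pairs. TRBV4 with TRBJ2-5, for example, averaged 16.0% ± 1.14 in 6 R mice and 14.0% ± 2.04 in 4 NR mice, which is 0.19 (SE 0.08) on the log2 scale with an adjusted p of 0.586. The ranges overlapped, at 14.0% to 17.4% in R and 11.8% to 16.7% in NR mice.

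Length and inner residues gave 1 call in the treatment comparisons. Mean CDR3 length was not called for either segment (0% of 12 V segments in each comparison). Among the 20 inner residues of each segment, threonine in TRBV4 was higher when PLX3397 was added to PTX at d105, with 8.15% to 8.57% (median 8.45%) in 6 PLX+PTX mice, against 7.47% and 7.74% in 2 PTX mice. The groups did not overlap, and the log2 difference was 0.14 (SE 0.03, limma adjusted p = 0.0215) against a background of 0.833% of 240 tests called. That call rests on 2 PTX libraries, and leaving out single libraries gave 0.11 to 0.17 on the log2 scale. Without PLX+PTX replicate 6 the adjusted p was 0.0524, in raw reads 0.0557 and with each clonotype once 0.343. Mouse numbers fell in a lower and a higher block. The 2 PTX mice were in the higher block, against 2 of the 6 PLX+PTX mice, and the part of block in this call was not tested.

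The share of a segment held by its 10 most abundant clonotypes was compared next. A fixed number of clonotypes weighs more in a segment that has fewer, and TRBV4 had fewer clonotypes than TRBV2 in each library. The share is thus not a measure of expansion alone, and the part of clonotype number in it was not tested. It was 4.60% for TRBV4 and 2.04% for TRBV2 of the segment's own normalised counts on average over 37 libraries, and TRBV4 was higher in 37 of 37 (difference 2.55 points, sign-flip permutation test, adjusted p = 1e-05). In reads the difference was 1.70 points. In R mice at d95 the TRBV4 value was 3.49%, 4.54%, 5.69%, 4.56% and 5.41%, against 23.7%, 8.17% and 6.70% in NR mice. The groups did not overlap. The log2 difference of -1.22 (SE 0.46) had a limma adjusted p of 0.0663, against 0% of 12 V segments called. Without NR replicate 1, the shallowest library, it was -0.66 (adjusted p 0.399). The R mice also had more TRBV4 clonotypes, 1540 to 2561 against 197 to 1449 in NR mice. The part of clonotype number in the R and NR difference was not tested.

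At d105 the TRBV4 value averaged 3.23% ± 0.535 over 18 MMTV-PyMT mice, against 2.49% ± 0.321 over the 5 WTNT mice. The TRBV2 averages were 1.84% ± 0.417 for MMTV-PyMT and 1.33% ± 0.272 for WTNT. Neither difference was called (log2 0.36 for TRBV4 and 0.41 for TRBV2, limma adjusted p = 0.141 for each, against 0% of 12 segments).

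Whether a treatment difference changed between days was tested as well, for R against NR, aPD-1 added and PLX3397 added. The change is the log2 difference at d105 minus that at d95. By limma, the share of neither member was called, against 4.17% of 24 segments for aPD-1 and 0% for the others. No pair was called, against 0.806% of 124 for aPD-1 and 0% for the others, and no receptor, against 0.0835% of 2394 for R against NR, 0.0418% for aPD-1 and 0.0835% for PLX3397. At an unadjusted p under 0.05, neither share passed. For R against NR, 9 of 111 TRBV4 and 22 of 269 TRBV2 receptors passed, among 188 of 2394 in all. The TRBV4 share in its 10 most abundant clonotypes was called for R against NR, with a change of 1.13 on the log2 scale (limma adjusted p = 0.0482), against 50% of 12 V segments. That call was lost in raw reads (0.89, adjusted p 0.109) and in thinned libraries (0.52, adjusted p 0.474). Leaving out single libraries ended it for 10 of 18: d105 R replicates 1, 3 and 4, d105 NR replicates 2, 3 and 4, d95 R replicates 1, 2 and 4, and d95 NR replicate 1, without which the change was 0.57 (adjusted p 0.5).

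Calls came mainly between d105 and d95. Beside each stands the depth gap between the days, whose part in these results was not tested. Of 124 V and J pairs, 96 (77.4%) were called, so a called member is no exception. Among 11 TRBV4 pairs 5 were higher and 4 lower at d105, and among 12 TRBV2 pairs 3 were higher and 7 lower (limma, Benjamini-Hochberg).

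TRBV4 moved away from TRBJ2-7. That pair had 41.4% to 54.2% of TRBV4 normalised counts (median 47.4%) in 18 d105 MMTV-PyMT libraries, against 64.5% to 70.3% (median 67.6%) in 14 d95 libraries. The days did not overlap, and the log2 difference was -0.49 (SE 0.04, adjusted p = 5.86e-13). TRBJ2-5 went the other way, with 11.8% to 17.4% (median 15.4%) at d105 and 4.71% to 7.57% (median 5.83%) at d95, which is 1.35 (SE 0.06) on the log2 scale (adjusted p = 1.41e-16). TRBJ2-3 was higher by 1.37, TRBJ2-4 by 1.30, TRBJ2-1 by 0.97 and TRBJ1-4 by 0.39 on the log2 scale, and TRBJ1-6 fell by 0.76, TRBJ2-2 by 0.48 and TRBJ1-2 by 0.45.

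TRBV2 moved toward TRBJ2-7, opposite to TRBV4. The pair had 23.1% to 31.5% of TRBV2 normalised counts (median 28.2%) at d105, against 12.6% to 19.0% (median 16.6%) at d95. These ranges did not overlap, and the log2 difference was 0.81 (SE 0.06, adjusted p = 2.99e-12). TRBJ1-3 was higher by 1.85 and TRBJ2-2 by 0.50 on the log2 scale. TRBJ1-6 fell by 0.88, TRBJ2-1 by 0.63, TRBJ1-2 by 0.54, TRBJ2-3 by 0.28, TRBJ1-4 by 0.24, TRBJ2-4 by 0.22 and TRBJ2-5 by 0.15.

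The pairing by clonotypes changed less. TRBJ2-7 was joined in 24.2% of TRBV4 clonotypes at d105 and 27.6% at d95, and in 18.4% and 16.7% of TRBV2 clonotypes. TRBJ2-5 was joined in 16.3% of TRBV4 clonotypes at d105 and 13.4% at d95. Of the 19 called pairs, 14 were called the same way with each clonotype once and 14 in raw reads. TRBV4 with TRBJ1-4 and TRBV2 with TRBJ1-4, TRBJ2-3, TRBJ2-4 and TRBJ2-5 turned sign on one of these scales. TRBV2 with TRBJ2-5 was called in the opposite direction in raw reads, higher at d105 by 0.13 on the log2 scale (limma adjusted p = 0.0128).

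**Figure D3:**
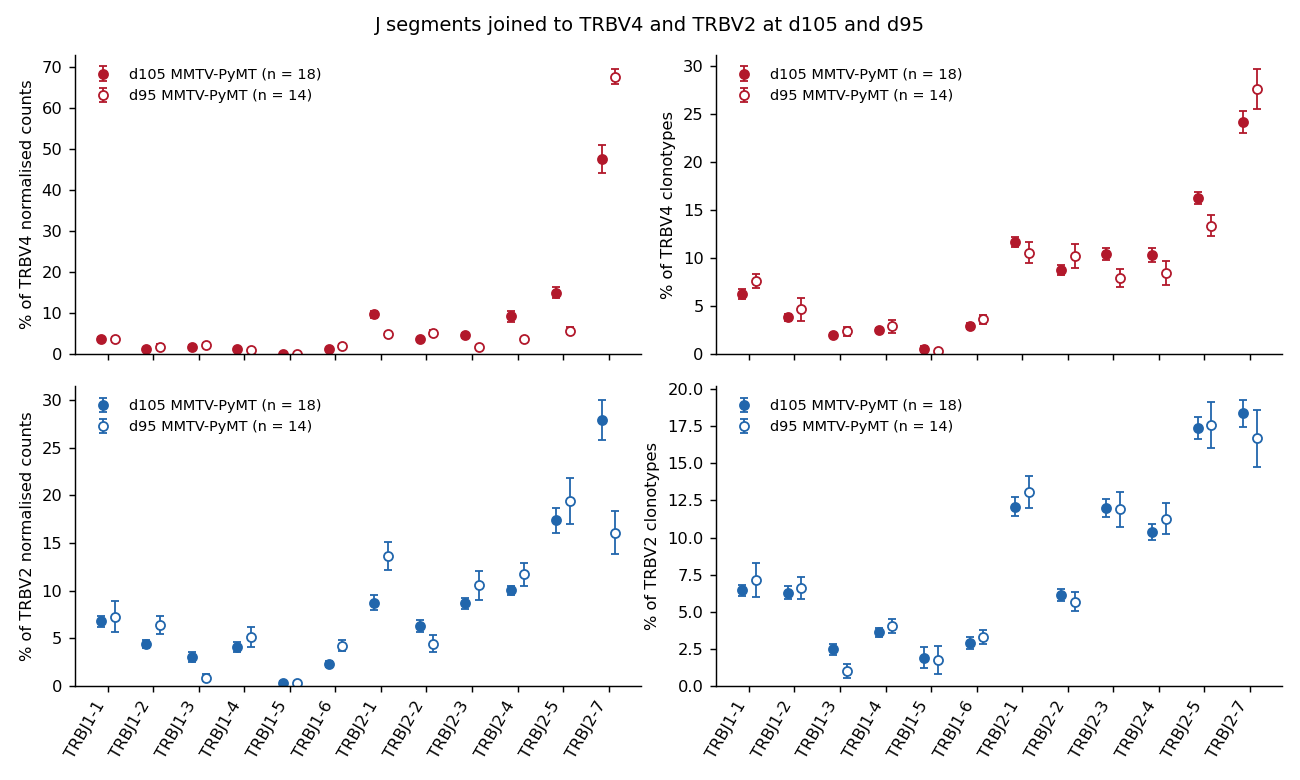
J usage within TRBV4 (upper) and TRBV2 (lower) as percent of the segment's normalised counts (left) and clonotypes (right), mean ± SD, for 18 d105 MMTV-PyMT libraries (filled) and 14 d95 libraries (open). TRBJ2-7 is lower at d105 in TRBV4 and higher at d105 in TRBV2 by normalised counts, while clonotype shares lie closer together.

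Pairs higher at d105 mostly had few reads per clonotype and a large factor, and TRBV4 with TRBJ2-7 was an exception, with a factor of 6.93 and a lower share at d105. Relative to its own library's mean, a TRBV4 clonotype with TRBJ2-5 had 0.326 as many reads at d105 and 0.110 at d95, one with TRBJ2-3 had 0.247 and 0.0872, and one with TRBJ2-4 had 0.261 and 0.0938. A TRBV4 clonotype with TRBJ2-7 had 1.52 at d105 and 1.40 at d95. Among TRBV2 clonotypes, those with TRBJ2-7 had 0.442 at d105 and 0.202 at d95, and those with TRBJ1-3 had 0.123 and 0.0605. Across the 23 pairs of both segments, the log2 difference between days and the factor rose together (Spearman's rho 0.84, Pearson's r 0.86, with 0.75 and 0.82 over 11 TRBV4 pairs and 0.92 and 0.96 over 12 TRBV2 pairs). The pairs share libraries and reads, so this is a description, and the part of amplification in the day differences was not tested.

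**Figure D4:**
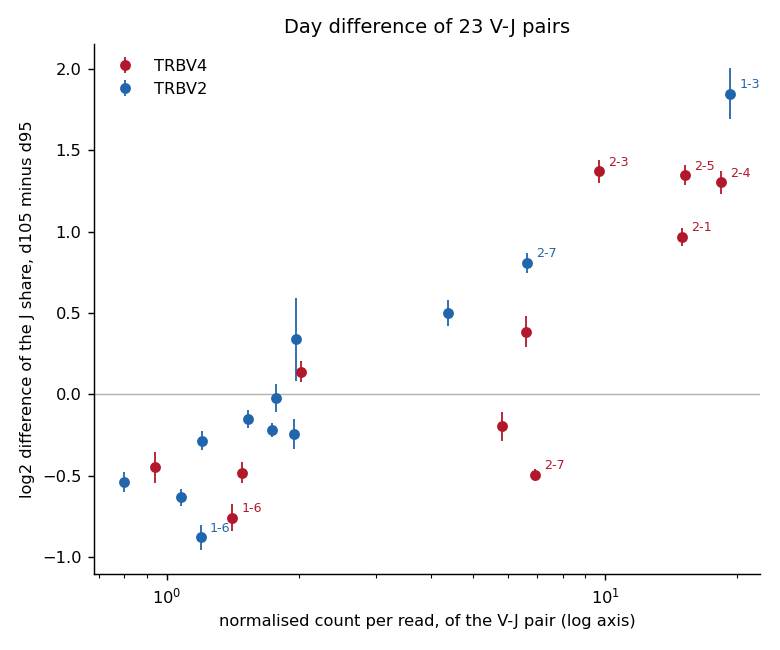
Log2 difference of each pair's share, d105 over d95 (± SE), against the authors' normalised count per read (log axis), for 11 TRBV4 and 12 TRBV2 pairs. The pairs with the largest factors lie above 0, those with the smallest below it, and TRBV4 with TRBJ2-7 lies at -0.49.

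The share of TRBV2 differed between days in opposite ways by scale. It was 9.14% to 11.0% of normalised counts (median 10.2%) in 18 d105 MMTV-PyMT libraries, against 7.60% to 12.5% (median 11.6%) in 14 d95 libraries. The ranges overlapped and the log2 difference was -0.13 (SE 0.05, limma adjusted p = 0.0162), against a background of 83.3% of 24 segments called. Leaving out single libraries gave -0.19 to -0.10 in normalised counts. In raw reads the TRBV2 difference was 0.14 (adjusted p 0.0369), since TRBV2 held 11.6% of reads at d105 and 10.7% at d95. TRBV4 had 20.8% ± 0.989 of normalised counts at d105 and 19.8% ± 2.15 at d95 and was not called (log2 0.09, adjusted p 0.0903). On raw reads the TRBV4 difference was 0.37 and past the threshold, with 7.69% at d105 and 6.10% at d95.

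Mean CDR3 length differed little between days, and in opposite directions. TRBV4 averaged 13.35 residues at d105 and 13.23 at d95 (difference 0.13, SE 0.02, limma adjusted p = 4.76e-06), and TRBV2 averaged 14.20 at d105 and 14.28 at d95 (difference -0.08, adjusted p 0.000137), against 66.7% of 12 segments called. In raw reads neither was called, and with each clonotype once the TRBV2 difference was 0.07. Of the inner residues, N (log2 0.19) and G (0.06) were higher and D (-0.12) lower in TRBV4, and Y (-0.28) and N (-0.15) lower in TRBV2, against 14.6% of 240 tests called. The TRBV4 differences in N and D turned sign with each clonotype once.

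The 10 most abundant clonotypes held less of both segments at d105. The TRBV4 value was 2.40% to 4.30% (median 3.23%) at d105, against 3.49% to 23.7% (median 5.60%) at d95, which is -1.04 on the log2 scale (limma adjusted p = 2e-07). The TRBV2 value was 1.05% to 2.51% (median 1.84%) at d105, against 1.43% to 7.95% (median 2.10%) at d95, which is -0.42 on the log2 scale (adjusted p 0.0273). All 12 V segments were called the same way (100%). With libraries thinned to 222369 reads the TRBV2 difference was -0.22 and no longer called, and without d95 NR replicate 1 it was -0.26 (adjusted p 0.0943).

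Both segments had public receptors, found in at least 19 of the 37 libraries. They numbered 119 for TRBV4 (0.134% of its receptors) and 279 for TRBV2 (0.236%), while 80.6% of TRBV4 and 79.6% of TRBV2 receptors were found in a single library. Among the 12 segments TRBV1 had the highest public share, 0.471%. The same J and CDR3 was found with both V segments for 11092 receptors, which is 12.5% of TRBV4 and 9.39% of TRBV2 receptors. None of these was public in both.

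The junctions of public receptors are shown as the nucleotide form found in most libraries, read from the deposited files. They show how little of each lies between the V and J ends. Lower case is V or J sequence, and capitals are the bases between the V and J ends, which can be D sequence or untemplated. The first 3 use TRBV4 and the last 2 use TRBV2.

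TRBV4 TRBJ2-7 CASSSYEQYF: tgtgccagcagctcctatgagcagtacttc

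TRBV4 TRBJ2-7 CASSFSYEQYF: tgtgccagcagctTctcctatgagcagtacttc

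TRBV4 TRBJ2-5 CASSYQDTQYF: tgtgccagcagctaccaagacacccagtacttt

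TRBV2 TRBJ2-5 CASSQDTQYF: tgtgccagcagccaagacacccagtacttt

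TRBV2 TRBJ2-5 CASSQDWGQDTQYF: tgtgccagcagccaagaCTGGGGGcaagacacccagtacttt

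The form of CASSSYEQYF shown was found in 36 libraries and held 68.4% of the receptor's reads, and that of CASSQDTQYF was found in 34 and held 96.6%. In both, the V and J ends overlap, so that no base is left to an addition: in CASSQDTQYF 6 bases match either segment. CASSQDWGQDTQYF holds 7 bases between the ends, and its form shown held 35.5% of reads. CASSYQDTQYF, like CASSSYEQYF, lacks the TRBV4 stop, having kept 14 V bases.

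Public receptors were shorter and simpler than the others of their segment. Public TRBV4 receptors averaged 12.9 residues, against 13.9 in the other TRBV4 receptors. Averaged over clonotypes, public TRBV4 receptors had 7.42 bases between V and J, against 11.1 in the others. Public TRBV2 receptors averaged 13.9 residues, against 14.6 in the others, and over clonotypes 6.52 bases, against 9.88. TRBJ2-7 was used by 63 of 119 public TRBV4 receptors (52.9%) and by 53 of 279 public TRBV2 receptors (19.0%). TRBJ2-5 led in TRBV2 with 71. Of the public TRBV2 receptors 277 began with CASSQ, and 0 of the public TRBV4 receptors did.

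The most widespread TRBV4 receptors were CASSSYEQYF (36 libraries), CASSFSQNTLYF and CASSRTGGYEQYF (34 each), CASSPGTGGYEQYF (33) and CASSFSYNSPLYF (32). Among TRBV2 receptors the most widespread included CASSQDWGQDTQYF (35) as well as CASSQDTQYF and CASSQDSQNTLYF (34 each), beside a 15-residue TRBJ2-4 receptor (36) and a 15-residue TRBJ2-3 receptor (34). All 119 and all 279 were found in at least 1 WTNT library.

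Public receptors held 8.99% of TRBV4 and 8.55% of TRBV2 normalised counts on average. TRBV4 was higher in 21 of 37 libraries and the difference of 0.44 points was not called (sign-flip permutation test, adjusted p = 0.189). The sign depended on the scale, since the difference was -1.31 points in raw reads (adjusted p 2e-05) and -2.23 points by clonotypes (adjusted p 1e-05, the smallest the permutations can give). Within d95 (14 libraries) it was 1.42 points (adjusted p 0.0477) and within d105 (23 libraries) -0.16 (p 0.389). The public lists were drawn from these same 37 libraries, more of them d105, so the p-values here are no independent test. A single library, d95 NR replicate 1, had a difference of 9.56 points, and without it the value was 0.80 points within d95 (adjusted p 0.0951) and 0.19 over the other 36 libraries (adjusted p 0.378).

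At equal numbers of reads, 42 to 95 of the 119 public TRBV4 receptors (median 84) were found in each of 18 d105 MMTV-PyMT libraries, against 29 to 71 (median 49) in 13 d95 libraries. For TRBV2, 106 to 227 of 279 (median 202) were found at d105, against 93 to 162 (median 122) at d95. The ranges overlapped. For TRBV4 the overlap came from d105 PTX replicate 2 alone, with 42. For TRBV2 it came from both PTX libraries, with 154 and 106, and from d105 R replicate 3, with 161. Thinning matched reads and not clonotypes: the thinned d105 MMTV-PyMT libraries held 1372 to 4909 TRBV4 and 2052 to 7540 TRBV2 clonotypes, against 848 to 1866 TRBV4 and 1346 to 3387 TRBV2 clonotypes at d95. The part of these numbers in the receptors found was not tested. Public membership itself rests on these libraries and more of them are d105, so no test between days is given.

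**Figure D5:**
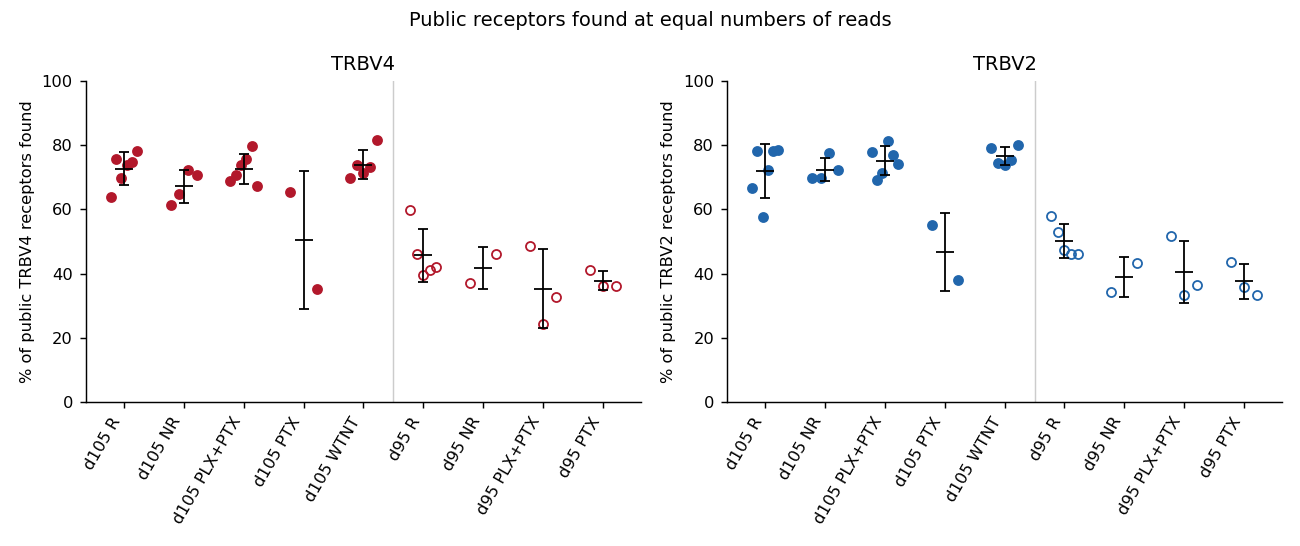
Percent of the 119 TRBV4 (left) and 279 TRBV2 (right) public receptors found in each library after thinning to equal numbers of reads, by group, with mean ± SD; d95 NR replicate 1 was too shallow to thin. For TRBV4 the d95 libraries lie below all d105 R, NR, PLX+PTX and WTNT libraries, for TRBV2 d95 R replicate 1 (58.1%) lies just above d105 R replicate 3 (57.7%), and the d105 PTX libraries lie at 65.5% and 35.3% for TRBV4 and at 55.2% and 38.0% for TRBV2.

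Single shared receptors were compared where they were found in enough libraries. Of the receptors tested at d105, 296 of 5242 used TRBV4 and 598 used TRBV2, and of the 964 tested at d95 38 used TRBV4. None of these members was called in any of the 7 treatment comparisons by limma, against 0.207% of all tested for R against NR at d95, 0.104% for PLX3397 added to PTX at d95 and 0% in the other 5. At an unadjusted p under 0.05, R against NR at d105 had 26 TRBV4 and 34 TRBV2 receptors among 289 in all.

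Between days, 12 of 111 TRBV4 and 13 of 269 TRBV2 receptors were higher at d105 and 0 were lower, against 5.22% of 2394 called. Over all segments 115 were higher and 10 lower. Tested receptors had to be found in 50% of the fitted libraries, of which 18 were d105 and 14 d95. A receptor found only at d95 could thus not be tested, while one found only at d105 could. The filter favours receptors higher at d105, so the direction of these calls is not a finding by itself. The median log2 difference was 0.93 for TRBV4 and 0.29 for TRBV2, and 0.19 over all tested. The largest log2 difference among called members, 3.36, was that of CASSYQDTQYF with TRBV4 and TRBJ2-5. It was found in 16 of 18 d105 MMTV-PyMT libraries and 1 of 14 d95 libraries. Its level ran from 0 to 556.4 normalised counts per 1000000 (CPM, median 124.3) at d105 and from 0 to 67.4 (median 0) at d95. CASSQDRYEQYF with TRBV2 and TRBJ2-7 was found in 17 of 18 and 4 of 14 libraries. Its level had a median of 91.3 CPM at d105 and 0 at d95, and its log2 difference was 2.39. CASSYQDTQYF and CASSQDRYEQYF both passed the filter through their d105 libraries, where they are high, so no p-value is given for them. Other called TRBV4 receptors included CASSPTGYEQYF (2.83) and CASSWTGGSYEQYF (2.45, both log2) with TRBJ2-7. Those with TRBJ2-5 included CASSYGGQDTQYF (2.36) and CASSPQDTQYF (2.27), and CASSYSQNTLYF (2.34) used TRBJ2-4. Within TRBV4 the TRBJ2-5 and TRBJ2-4 pairs were themselves higher at d105, by 1.35 and 1.30, while the TRBJ2-7 pair was at -0.49. The part of these pair differences in the receptor calls was not tested. The count of called members was 14 without d105 PTX replicate 1, 16 without d95 NR replicate 1 and 2 with a filter of 80% of libraries.

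The leading receptors of TRBV4 were the same few public receptors in most mice. TRBV4 TRBJ2-7 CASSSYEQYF had 13 nucleotide forms, so a leading receptor can hold several clonotypes. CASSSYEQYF with TRBJ2-7 had the most normalised counts of any TRBV4 receptor in 16 of 37 libraries, at 0.103% to 0.293% of the library, and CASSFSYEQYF in 8. By normalised counts each TRBV4 leader used TRBJ2-7. By raw reads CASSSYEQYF led 13 libraries and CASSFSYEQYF 7, and in 8 of the 37 the leader used TRBJ1-2 or TRBJ2-2. As a group mean, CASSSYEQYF led in 6 of 9 groups: R mice at d105 had 0.133% ± 0.0609, NR mice 0.166% ± 0.0438, PLX+PTX mice 0.125% ± 0.0460 and WTNT mice 0.123% ± 0.0251. The range in 2 PTX mice was 0.0531% to 0.118%, below that of 4 NR mice at 0.132% to 0.227%, a pair that was not one of the comparisons tested. The ranges of R, PLX+PTX and WTNT mice overlapped both.

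At d95 TRBV4 TRBJ2-7 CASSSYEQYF had 1299.6, 2319, 1006, 1152 and 2124 CPM in R mice. In NR mice it was not seen in replicate 1, the shallowest library, and had 3132 and 2932 CPM in the others. It had 1765, 1723 and 644 CPM in PLX+PTX mice and 922, 720.4 and 935 CPM in PTX mice. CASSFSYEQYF led in d95 PLX+PTX and PTX mice, found in 2 of 3 libraries of each, and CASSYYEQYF led in NR mice, with 0.0667% to 0.599% over 3 libraries. That lead rests on the 0.599% in NR replicate 1, where the receptor had 108 reads. Without that library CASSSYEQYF led in NR mice with a mean of 0.303%, and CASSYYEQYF had 0.0874%.

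TRBV2 had no such common leader. Its 37 libraries had 32 different leading receptors, and the most frequent, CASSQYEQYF with TRBJ2-7, led in 3. By normalised counts the TRBV4 leader held more than the TRBV2 leader in 37 of 37 libraries, with medians of 0.177% for TRBV4 and 0.0385% for TRBV2. By raw reads it held more in 24 of 37, with medians of 0.0572% and 0.0427%, and the highest values were 0.123% for TRBV4 and 0.132% for TRBV2. The TRBV2 leader with the highest value on both scales was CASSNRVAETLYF in d95 NR replicate 1 (0.116% of normalised counts), a receptor found in 2 of 37 libraries. The receptor with the highest mean share of normalised counts in a group differed in each of the 9 groups. Without d95 NR replicate 1, however, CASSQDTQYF led in both NR and PTX mice at d95. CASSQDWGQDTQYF led in d105 R mice (0.0156% ± 0.00693), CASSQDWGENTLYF in d105 NR mice, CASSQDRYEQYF in d105 PLX+PTX mice and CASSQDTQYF in d95 PTX mice (0.0235% ± 0.0198).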

How the data were processed

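The deposited tables list, per the file headers, each productive clonotype with its V, D and J calls, its read count and a normalized clone count, which is a score the authors scaled per V and J pair and rounded. The sources used here name no aligner, caller or genome build. Members and lists were chosen with earlier results of these data known.

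Shares were computed per library in Python 3.11.15 (numpy 2.4.6, scipy 1.17.1, pandas 2.3.3, matplotlib 3.10.9). V and J segments above 0.1% and pairs above 0.02% on average, inner residues, mean lengths and receptors found in 50% of libraries were tested with limma 3.58.1 (R 4.3.3) on log2 values, with pseudocounts of 0.01% for segment shares, 0.1% for pairs and 10 CPM for receptors. Lengths stayed in residues. There were 3 fits, of the d105, the d95 and all MMTV-PyMT libraries, and 8 comparisons, with 3 tests of whether a treatment difference changed between days. Benjamini-Hochberg adjustment ran over all features of a comparison, with calls under 0.05. TRBV4 and TRBV2 were set against each other within libraries by a sign-flip permutation test with 100000 resamples, adjusted over 4 measures. The fits were tested on simulated data.

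Named were the 3 commonest and 2 rarest J partners, the 5 receptors in most libraries, group leaders, receptors leading 3 or more libraries, the 3 commonest inner residues, the 2 most alike V segments, and called items, up to 10 receptors per comparison. Alternatives were raw reads, each clonotype once, the authors' nb clone counts, other pseudocounts and filters, and thinning to 222369 reads (36 libraries). Further ones were edgeR 4.0.16 and DESeq2 1.42.0 on read counts, and leaving out each library. Mouse number block was an alternative for d105 segment shares only. At d105 all 4 NR and 2 PTX mice were in the higher block, as were 4 R and 2 PLX+PTX mice. The other 2 R and 4 PLX+PTX mice were in the lower block.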

Additional observations from a re-analysis of the deposited data

Results flagged for a closer look

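The TRBV4 share of reads in d105 PLX+PTX replicate 1 was 6.52%, below the nearest of the other 5 PLX+PTX libraries at 7.77% by more than the spread of that group allows under Dixon's test. The public share of TRBV2 normalised counts in d105 PLX+PTX replicate 2 was 9.23%, above the nearest library of its group at 8.11%. Of 70 group and measure combinations tested this way 2 stood out (2.86%), where chance gives about 3.5.

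The share of TRBV4 held by its 10 most abundant clonotypes was called as differing between R and NR mice by a different amount at each day. The d105 minus the d95 log2 difference was 1.13 (limma adjusted p = 0.0482), against 50% of 12 V segments called. In raw reads it was 0.89 (adjusted p 0.109) and in thinned libraries 0.52 (adjusted p 0.474). Leaving out single libraries gave 0.57 to 1.48, the lowest without d95 NR replicate 1 (adjusted p 0.5), which held 197 TRBV4 clonotypes.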

How the results depend on the processing

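No paired analysis was possible because the labels give no replicate numbers that groups share. Between d105 and d95, the TRBV2 share difference was 0.14 in raw reads, -0.0050 in nb clone counts, 0.034 with edgeR and 0.023 with DESeq2, and -0.19 to -0.10 when single libraries were left out. The TRBV4 share difference was 0.37 in raw reads, 0.21 in nb clone counts, 0.15 with each clonotype once, 0.26 with edgeR and 0.25 with DESeq2, all past the threshold, and 0.044 to 0.11 without single libraries (called without d95 PLX+PTX replicate 1 or 3). The members called in share were then 2 in reads, 2 with each clonotype once and 0 to 2 without single libraries. The length difference was -0.045 in reads and 0.070 once for TRBV2, and 0.0078 in reads for TRBV4, leaving 0 called in reads. The pairs that reversed were TRBV2 with TRBJ1-4 (0.029), TRBJ2-4 (0.059) and TRBJ2-5 (0.13) in reads, and TRBV2 with TRBJ2-3 (0.019) and TRBV4 with TRBJ1-4 (-0.16) once. Inner residues reversed for TRBV4 D once (0.021) and N in reads (-0.056) and once (-0.10), with 2 members called in reads and 4 to 8 without single libraries. The TRBV2 share in its 10 most abundant clonotypes was -0.22 after thinning, leaving 1 member called, and -0.51 to -0.26 without single libraries (1 to 2 called). Receptors called numbered 2 with the 80% filter, 40 with a pseudocount of 1 CPM and 14 to 27 without single libraries.

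Within days, PLX3397 added to PTX at d105 gave 0 inner residues called in reads and 0 once, 1 receptor with the 80% filter, and without single libraries 0 to 4 residues, 0 to 1 pair and 0 to 1 receptor. MMTV-PyMT against WTNT gave 0 to 1 residue and 0 to 1 receptor. R against NR at d95 had a TRBV4 difference in the 10 most abundant clonotypes of -1.57 to -0.66 (0 to 1 called). Leaving out either d105 PTX library leaves 1, assumed to vary like the other groups. The public difference of TRBV4 minus TRBV2 was -1.31 points in reads and -2.23 once over all libraries, and -0.75 and -2.08 at d95. Without d95 NR replicate 1, an alternative chosen after seeing the data, TRBV4 minus TRBV2 was -0.91 residues, 31.2 points for TRBJ2-7, 2.19 for the 10 most abundant clonotypes and 0.19 for public receptors. The cause was not tested. Of 718 values without a call 71 changed sign, between -0.21 and 0.23, and were counted as unchanged. Shallow d95 libraries limit which receptors could be found.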
